A study of Caenorhabditis elegans with 2 samples.

Results

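The 9 genes described here build the nematode eggshell or carry out egg activation, the set of changes that turn an oocyte into an embryo. They are chs-1, gna-2, cbd-1, egg-1, egg-2, egg-3, egg-4, egg-5 and mbk-2, chosen by symbol from a list of maternal genes of the oocyte-to-embryo transition, and all 9 of 9 were found among the 19487 genes of the deposited table. RNA came from mixed-stage Caenorhabditis elegans embryos of strain BW1943, whose genotype is gad-1(ct226) with dpy-11(e224), a linked marker on the same chromosome, V. One library was made from embryos collected at 25 °C and one from embryos collected at 16 °C. Embryos were released by bleaching, and both libraries share both mutations, so an effect of temperature and an effect of the mutation cannot be told apart. The series title places GAD-1, a WD-repeat protein, in pre-mRNA splicing with the Prp19 complex, part of the active spliceosome, which frames the question of whether introns stay in transcripts at 25 °C.

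In Caenorhabditis elegans the eggshell has an outer vitelline layer, a chitin layer and a proteoglycan layer, with a lipid-rich permeability barrier beneath them. The fertilized egg seals itself within minutes. The enzymes and scaffolds for this are loaded into the oocyte as maternal RNA and protein. In the same short period the kinase MBK-2 is released from the cortex and marks maternal proteins for removal, so that shell building and the change of cell state start together. The EGG proteins link the 2 events. EGG-1 and EGG-2 sit on the oocyte surface and are needed for sperm entry, EGG-3 holds MBK-2 and the chitin synthase at the cortex, and EGG-4 and EGG-5 bind and restrain MBK-2.

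Gene reads numbered 18175617 at 25 °C and 22016818 at 16 °C, without replicates. Intron reads were 2.47% of the gene reads at 25 °C and 1.43% at 16 °C. Exon levels are given as exon reads per kilobase of exon per 1000000 gene reads of the library (RPKM), and differences as the ratio of library-scaled exon reads, 25 °C over 16 °C. All intervals are exact at 95% and hold counting error alone, because there are no replicates. PCR copies are not independent molecules, so the intervals may be too narrow even for counting error. The mutated gad-1 itself had 2748 exon reads at 25 °C and 3123 at 16 °C, or 1.07 times as many after scaling (1.01 to 1.12), and the counts do not show what the allele does to the protein.

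Exon reads of 8 of the 9 genes differed by less than 2-fold between the 25 °C and 16 °C libraries, and gna-2 was the exception. By size alone, 1 of 9 was at least 2-fold lower at 25 °C, none was at least 2-fold higher and 8 lay between. Of all 14313 genes that reached 10 exon reads in a library, 33.6% were at least 2-fold lower and 5.81% at least 2-fold higher. The members' median log2 exon difference was 0.21, against -0.42 over those genes. With 1 library per temperature no test of expression was possible. In such bulk samples fewer embryos of a stage and less RNA per embryo cannot be told apart.

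**Figure D1:**
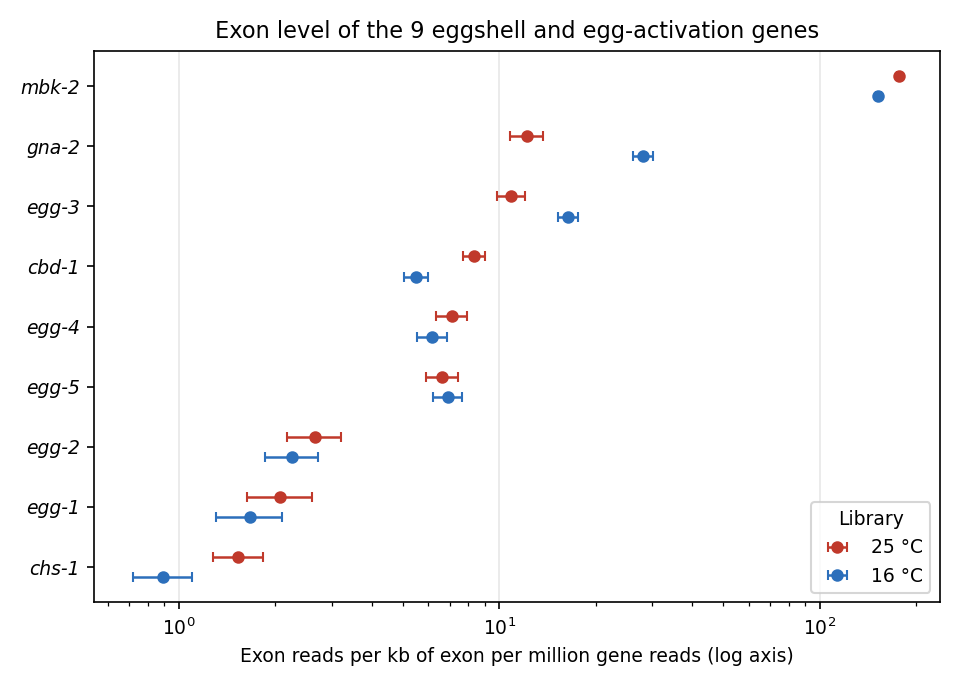
Exon level of each gene on a log axis, in exon reads per kilobase of exon per 1000000 gene reads, with the 25 °C library above the 16 °C library. Bars are exact 95% counting intervals; mbk-2 lies far above the others, and the level of gna-2 at 25 °C is 12.2 against 28.1 at 16 °C.

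Chitin is made from UDP-N-acetylglucosamine, and the members that serve it lay on opposite sides of 1. The gene gna-2 (T23G11.2, chromosome I) encodes an acetyltransferase that makes the sugar precursor. It had 281 exon reads at 25 °C and 786 at 16 °C, and was 2.31-fold lower at 25 °C (2.01 to 2.66). The chitin synthase gene chs-1 (T25G3.2, chromosome I), whose enzyme spins the chitin layer of the shell, had 126 exon reads at 25 °C and 89 at 16 °C, a ratio of 1.71 (1.30 to 2.28). Of the 9 genes it had the lowest level, 1.53 RPKM at 25 °C and 0.894 at 16 °C. For gna-2 the 2-fold mark was lost when libraries were scaled by the median exon ratio over genes, which moved every log2 difference up by 0.39 and left it 1.77-fold lower, whereas chs-1 then passed the mark at 2.24-fold higher.

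The vitelline layer gene cbd-1 (H02I12.1; chromosome IV, 11372991 to 11377627, plus strand), a protein with chitin-binding domains, was higher at 25 °C. It had 639 exon reads at 25 °C and 512 at 16 °C, a ratio of 1.51 (1.34 to 1.70). Scaled by the median exon ratio, it had a ratio of 1.97 (1.75 to 2.22), close to the 2-fold mark. Its level was 8.33 RPKM at 25 °C and 5.51 at 16 °C.

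The oocyte surface genes egg-1 and egg-2, which encode proteins with LDL-receptor repeats, had few reads in both libraries. For egg-1 (B0244.8; chromosome III, 5728180 to 5730159, plus strand) there were 76 exon reads at 25 °C and 74 at 16 °C, a ratio of 1.24 (0.891 to 1.74). Those of egg-2 (R01H2.3; chromosome III, 7058527 to 7060583, minus strand) numbered 108 at 25 °C and 111 at 16 °C, a ratio of 1.18 (0.896 to 1.55). Both intervals contain 1 when libraries are scaled by total reads. Scaled by the median exon ratio, the ratios were 1.62 (1.16 to 2.27) for egg-1 and 1.54 (1.17 to 2.02) for egg-2, so whether either gene differed depends on the scaling.

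The cortical scaffold gene egg-3 and the MBK-2 inhibitor genes egg-4 and egg-5 all encode proteins related to tyrosine phosphatases that are thought to have lost catalytic activity. For egg-3 (F44F4.2; chromosome II, 10882408 to 10884441, minus strand) there were 397 exon reads at 25 °C and 726 at 16 °C, and it was 1.51-fold lower at 25 °C (1.33 to 1.71). Scaling by the median exon ratio left it 1.16-fold lower. Exon reads of egg-4 (T21E3.1, chromosome I) were 305 at 25 °C and 321 at 16 °C, a ratio of 1.15 (0.981 to 1.35), and those of egg-5 (R12E2.10, chromosome I) were 285 and 359 in the same order, a ratio of 0.962 (0.820 to 1.13). Both intervals contain 1. Scaling by the median exon ratio gave a ratio of 1.5 (1.28 to 1.76) for egg-4 and turned the sign for egg-5, to 1.26 (1.07 to 1.47). As close copies with equal summed intron lengths of 242 bases, egg-4 and egg-5 may share reads. How the counting treated such reads was not tested, so their single values and their sum are uncertain. Summed, the pair had 590 exon reads at 25 °C and 680 at 16 °C, a ratio of 1.05 (0.940 to 1.18).

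The kinase gene mbk-2 (F49E11.1; chromosome IV, 13009158 to 13035961, plus strand) was the most abundant member by far. It encodes the DYRK-family kinase of egg activation, and had 14702 exon reads at 25 °C and 15346 at 16 °C, a ratio of 1.16 (1.13 to 1.19). Scaled by the median exon ratio, it had a ratio of 1.52 (1.48 to 1.55). Its level of 177 RPKM at 25 °C and 152 at 16 °C lay at percentile 97.4 of all genes at 25 °C and 96.0 at 16 °C. Of all exon reads of the 9 genes, mbk-2 held 86.9% at 25 °C and 83.7% at 16 °C, so any sum over them is mostly this gene.

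Per length, the order of levels at 25 °C was mbk-2, gna-2, egg-3, cbd-1, egg-4, egg-5, egg-2, egg-1 and chs-1. The neighbours gna-2 and egg-3, cbd-1 and egg-4, egg-4 and egg-5, egg-2 and egg-1, and egg-1 and chs-1 had overlapping counting intervals there. At 16 °C the order was mbk-2, gna-2, egg-3, egg-5, egg-4, cbd-1, egg-2, egg-1 and chs-1, and the intervals of gna-2 and egg-3 (28.1 and 16.4 RPKM) lay apart. At 25 °C that pair stood at 12.2 and 10.9 RPKM. The place of cbd-1 also differed, above the egg-4 and egg-5 pair at 25 °C and below it at 16 °C, although its interval touched that of egg-4 in both libraries.

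Introns were compared by the ratio of their reads to exon reads within a gene. That ratio rose in 1 of 9 genes, mbk-2, and fell in none, by a two-sided Fisher exact test on the 4 counts of each gene with Benjamini-Hochberg adjustment over 14972 genes. Over those genes 28.1% rose and 0.614% fell. This test compares the reads of 2 libraries, not the temperatures. The other 8 genes had 0 to 6 combined intron reads, and among genes with 1 to 9 such reads 5.93% rose. Among genes whose introns sum to under 500 bases 23.5% rose, and the number of intron reads thus bears on whether a gene is called.

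For mbk-2 there were 123 intron reads at 25 °C and 62 at 16 °C. They made up 0.830% of its reads at 25 °C (0.690 to 0.989) and 0.402% at 16 °C (0.309 to 0.516). The intron-to-exon ratio was 2.07-fold higher (1.51 to 2.86), with an adjusted p of 2.30e-05 by Fisher exact test. Its log2 value was 1.04. The log2 median was 1.06 over all genes tested and 0.97 over those that reached 20 combined intron reads. The rise in mbk-2 was thus close to the median over genes. Intron reads scaled by library were 2.40-fold higher (1.76 to 3.32), while exon reads differed by 1.16, so the larger of the 2 differences was in the intron reads. In the authors' deposited table the same gene has a fold of 2.07 and an adjusted p of 0.0371, which misses that table's threshold of 0.01.

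Although mbk-2 has the most intron reads of the 9, they are sparse over its intron length. The deposited table gives it 10607 bases of intron, against a median of 654 over all genes. Intron reads per kilobase were 0.361% of exon reads per kilobase at 25 °C and 0.174% at 16 °C, at percentile 13 and 16.1 of genes reaching 10 exon reads in that library. The median over those genes was 5.13% at 25 °C and 2.47% at 16 °C. Ensembl release 115 lists 14 transcripts of mbk-2 and 21961 bases between its merged exons, with a longest gap of 8718 bases, so the intron set behind the counts differs from this annotation. The coding gene F49E11.2, on the opposite strand, overlaps mbk-2, and its part in the intron reads was not tested.

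**Figure D2:**
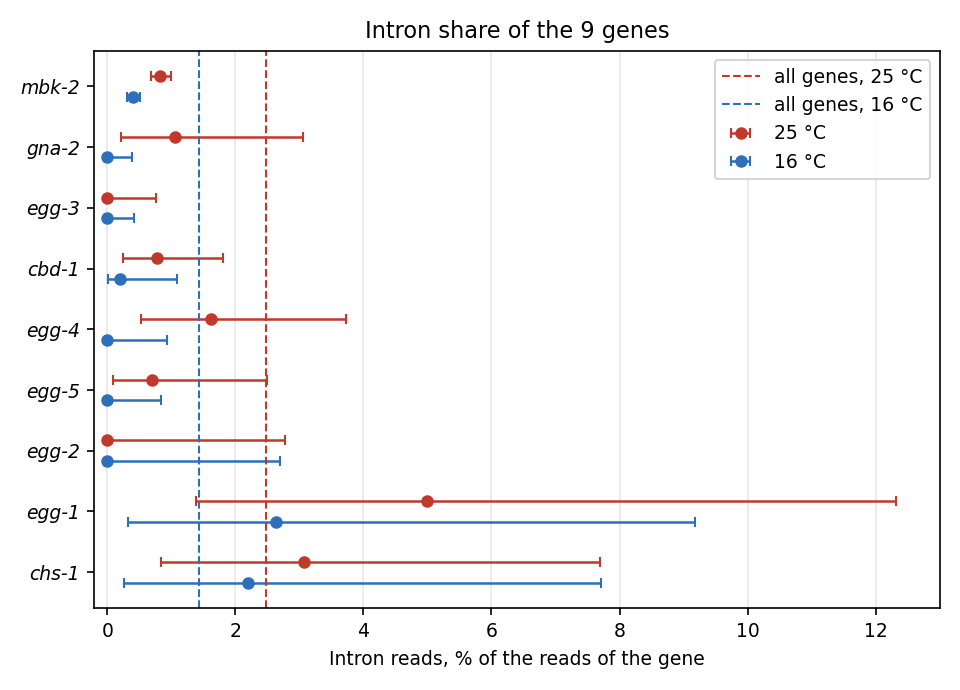
Intron reads as a percentage of the reads of each gene, the 25 °C library above the 16 °C library. Bars are exact 95% intervals where intron reads were found. For a count of 0 the bar is the limit that 3 counts set, which lies below the exact limit. Dashed lines mark all genes, at 2.47% and 1.43%, and mbk-2 is the gene with the narrowest intervals.

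The other 8 genes have short introns, 145 to 487 bases in sum, and few intron reads to count. The acetyltransferase gene gna-2 had 3 intron reads of 284 at 25 °C, a share of 1.06% (0.218 to 3.06). At 16 °C it had 0 of 786, with an exact upper limit of 0.468%. It was not called by Fisher exact test (adjusted p = 0.0624). The inhibitor gene egg-4 had 5 of 310 at 25 °C, or 1.61% (0.526 to 3.72). At 16 °C it had 0 of 321, with an exact upper limit of 1.14%. Its adjusted p was 0.0878 by Fisher exact test. Its partner egg-5 had 2 of 287 at 25 °C, or 0.697% (0.0845 to 2.49). At 16 °C egg-5 had 0 of 359, with an exact upper limit of 1.02%. The adjusted p of egg-5 was 0.408 by Fisher exact test. In each of these 3 genes the intron reads were found at 25 °C and none at 16 °C.

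The vitelline gene cbd-1 had 5 intron reads of 644 at 25 °C and 1 of 513 at 16 °C, a 4.01-fold ratio with an interval of 0.446 to 190. The sperm-entry gene egg-1 had 4 of 80 at 25 °C and 2 of 76 at 16 °C, a ratio of 1.95 (0.269 to 22). The chitin synthase gene chs-1 had 4 of 130 at 25 °C and 2 of 91 at 16 °C, a ratio of 1.41 (0.197 to 15.9). All of these intervals contain 1. Neither egg-3 nor egg-2 had an intron read in either library. For egg-3 that is 0 of 397 at 25 °C and 0 of 726 at 16 °C. The exact upper limits are 0.925% and 0.507% in the same order. For egg-2 it is 0 of 108 and 0 of 111 in the same order, with exact upper limits of 3.36% and 3.27%.

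How many reads a call needed shows what this depth could find. With their 16 °C counts and their 25 °C totals as measured, gna-2 would have been called from 4 intron reads at 25 °C, egg-3 from 5, and egg-2, egg-4 and egg-5 from 6 each. The numbers were 12 for cbd-1 and egg-1 and 15 for chs-1. By this reckoning gna-2 and egg-4 each stood 1 read short of a call. At the median intron density over genes, the 8 genes without mbk-2 would have held 12.2 intron reads at 25 °C and 8.08 at 16 °C. They held 23 at 25 °C and 5 at 16 °C, or 1.03% (0.652 to 1.54) and 0.168% (0.0544 to 0.391) of their reads, and the ratio of the sums was 6.18 (2.29 to 20.8). This sum was formed after seeing the counts and carries no test.

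The members' median log2 ratio was 1.04, the value of mbk-2 itself, beside 1.06 over all genes tested. With 0.5 reads added to each count this median leans on genes with almost no intron reads. With counts under 3 set at 3 it was 0.42. The values of gna-2 (4.29), egg-4 (3.53) and egg-5 (2.65) all come from a count of 0 at 16 °C, and those of egg-2 and egg-3 from unscaled exon reads alone.

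**Figure D3:**
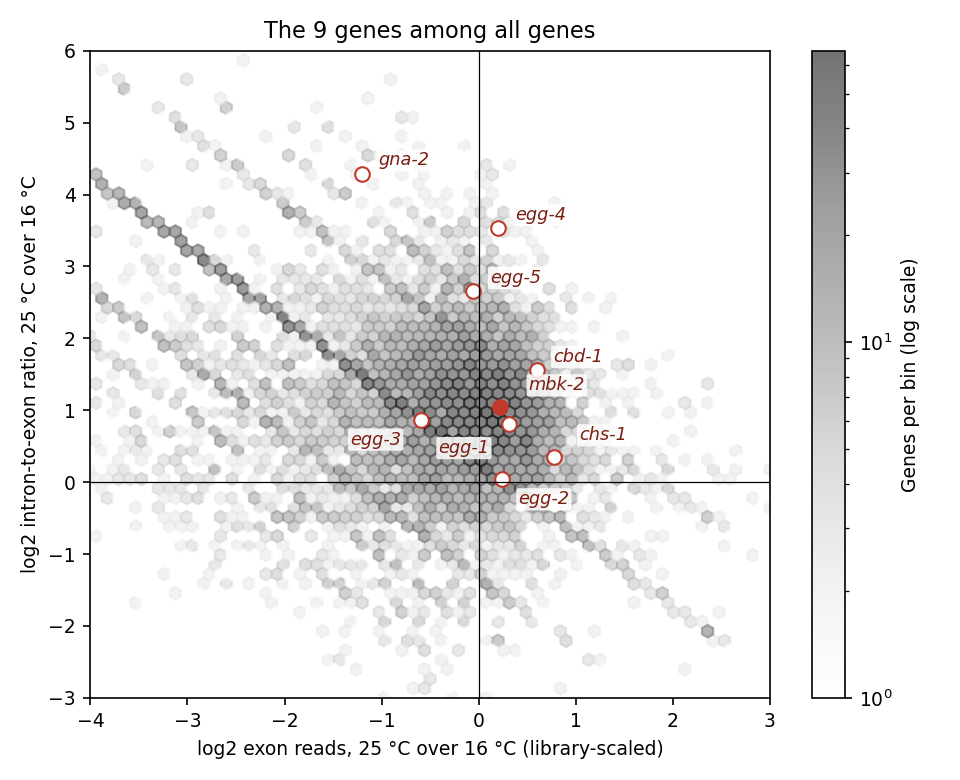
Each of the 9 genes by its log2 exon difference (horizontal) and its log2 intron-to-exon difference (vertical), 25 °C over 16 °C with 0.5 reads added, over a grey density of all genes tested within the axes. The filled point, mbk-2, is the gene called by Fisher exact test, and diagonal lines are genes with few or no intron reads.

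In Ensembl WBcel235, whose intron lengths equal those of the table for 7 of the 9 genes, the small members hold 3 to 10 introns each. The longest intron was 50 bases in gna-2 and 48 bases in cbd-1. Annotated genes overlap egg-3 (lurp-1, opposite strand), egg-1 (B0244.9, opposite strand) and chs-1 (T25G3.3, same strand), and whether the counting used strand is not given in the sources used here. Reads of these genes and their neighbours may therefore be mixed, which was not tested. No annotated gene overlapped cbd-1, egg-2, egg-4, egg-5 or gna-2.

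The close paralogs that work elsewhere gave other values. The pharyngeal chitin synthase gene chs-2 had 280 exon reads at 25 °C and 2688 at 16 °C. It was 7.93-fold lower (7 to 9), against the ratio of 1.71 for chs-1. Scaled by the median exon ratio, chs-2 was 6.06-fold lower and chs-1 2.24-fold higher. The intron-to-exon ratio of chs-2 rose 6-fold (1.53 to 20.9) on 5 intron reads at 25 °C and 8 at 16 °C (adjusted p = 0.0214, Fisher exact test). Its library-scaled intron reads had a ratio of 0.757 (0.195 to 2.62), so the larger of the 2 differences was in the exon reads. The DYRK gene mbk-1 had 6328 exon reads at 25 °C and 4737 at 16 °C. It had a ratio of 1.62 (1.56 to 1.68), or 2.11 when scaled by the median exon ratio, past the 2-fold mark. Its ratio of intron to exon reads rose 1.42-fold (1.07 to 1.90; adjusted p = 0.0443, Fisher exact test). The acetyltransferase gene gna-1 was sought as well and not found by symbol.

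Other genes of the shell and its permeability barrier were taken as a list of 24, of which 22 had enough reads. The intron-to-exon ratio rose in 7 of 22, fell in none and was not called in 15, beside 28.1% that rose over all genes tested. Its median log2 was 1.23, beside 1.06 over all genes tested. Among 9 chondroitin genes, sqv-1 to sqv-8 and mig-22, it rose in 5 and was not called in 4, of which sqv-6 had a ratio of 0.983 (0.669 to 1.45). Of those that rose, sqv-3, a galactosyltransferase, rose 6.44-fold (2.58 to 19.2), sqv-7, a nucleotide-sugar transporter, 3.92-fold (1.64 to 10.4), and mig-22, a chondroitin polymerizing factor, 3.76-fold (1.22 to 15.4). Exon reads were at least 2-fold higher in 1 of the 22, at least 2-fold lower in 1 and between in 20, with a median log2 of 0.12. Scaling by the median exon ratio put 4 of the 22 at least 2-fold higher and 1 lower. The higher one was gfat-2, an enzyme at the start of hexosamine synthesis, with 83 reads at 25 °C and 46 at 16 °C, a ratio of 2.19 (1.51 to 3.21). The lower one, named after its value was seen, was the proteoglycan gene cpg-3 with 8 and 29 reads in the same order. The lipid-layer P450 gene cyp-31A2, whose reads are uncertain beside its near copy cyp-31A3, had a ratio of 1.87 (1.37 to 2.58), and sqv-4, a UDP-glucose dehydrogenase, was 1.81-fold lower (1.64 to 2.01). Its intron-to-exon ratio rose on 10 intron reads at 25 °C and 1 at 16 °C (adjusted p = 5.74e-04, Fisher exact test).

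Cortical granules empty to build the inner shell, and 5 genes tied to their traffic were taken as a list, of which 4 were in the table. The intron-to-exon ratio rose in 2 of 4, fell in 1 and was not called in 1. Over all genes tested the intron-to-exon ratio rose in 28.1% and fell in 0.614%. It rose 3.17-fold (1.99 to 5.24) in sep-1, the separase, and 2.39-fold (1.51 to 3.86) in rab-11.1, a trafficking GTPase. In rab-6.1, another trafficking GTPase, it fell to 0.172 of its 16 °C value (0.0195 to 0.704), where 2 reads lay in introns at 25 °C and 23 at 16 °C. The caveolin gene cav-1, with 58555 exon reads at 25 °C and 54898 at 16 °C, had a ratio of 1.06 (0.831 to 1.35). All 4 lay within 2-fold in exon reads.

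Regulators of the oocyte-to-embryo transition were listed as 24 genes, all of them tested. The intron-to-exon ratio rose in 15 of 24 and fell in none, with 9 not called and a median log2 of 1.45. Where 20 combined intron reads were reached, the largest values were 6.85-fold (3.22 to 16.7) in cul-3, the cullin of the ligase that removes MEI-1, 4.58-fold (3.18 to 6.75) in fzy-1, an activator of the anaphase-promoting complex, and 4.44-fold (2.97 to 6.80) in emb-30, a subunit of that complex. Exon reads had a median log2 of 0.03, with 23 of 24 within 2-fold by library total. Scaled by the median exon ratio, 2 of 24 were at least 2-fold higher and none lower, the higher ones being mat-2 at 2.16 and plk-1 at 2.08. By library total the ubiquitin-like modifier gene ned-8 was 2.02-fold lower (1.87 to 2.18), or 1.55-fold lower when scaled by the median exon ratio, while mat-2, a subunit of the anaphase-promoting complex, had a ratio of 1.65 (1.59 to 1.72) and plk-1, a polo kinase, one of 1.59 (1.53 to 1.65). The shares called in these lists depend on how many intron reads a gene has. Of all genes tested 28.1% rose, and of those that reached 20 combined intron reads 51.1% rose. The 24 regulators include genes below 20, such as oma-1 and zif-1.

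**Figure D4:**
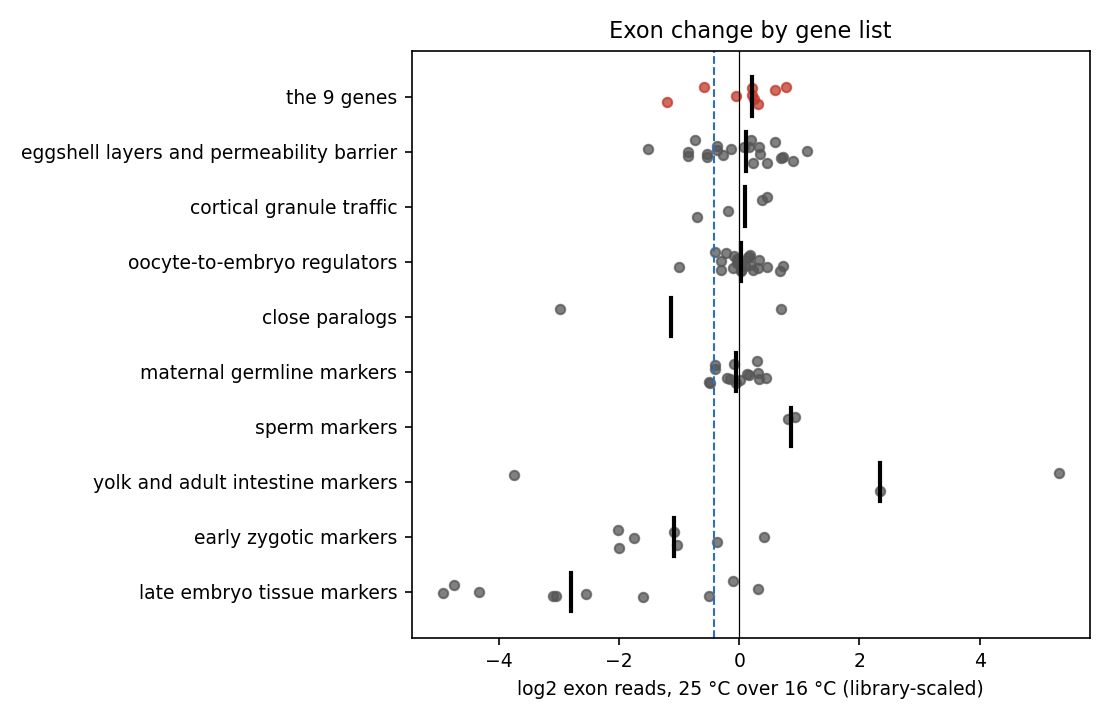
Library-scaled log2 exon difference, 25 °C over 16 °C, of each gene that reached 10 exon reads in a library, by list, with the 9 genes in the top row. Thick black ticks are list medians and the dashed line is the median over all genes, -0.42; the 9 genes have a median of 0.21 and late embryo tissue markers one of -2.80.

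Stage and tissue markers differed between the libraries while maternal ones were close to level. All 15 of 15 maternal germline markers lay within 2-fold, with a summed level of 1422 exon reads per 1000000 at 25 °C and 1347 at 16 °C. Of these, pos-1, a translational regulator of early blastomeres, had a ratio of 0.965 (0.929 to 1; 1.26 when scaled by the median exon ratio), mex-3 one of 1.24 (1.19 to 1.30) and skn-1 one of 1.36 (1.30 to 1.42). The sign of this list's median turned with the scaling, -0.05 by library total and 0.33 by the median exon ratio. Early zygotic markers were at least 2-fold lower in 5 of 7, or 3 of 7 when scaled by the median exon ratio, with 332 reads per 1000000 in sum at 25 °C and 563 at 16 °C. Among them vet-2 was 2.13-fold lower, end-1, an endoderm GATA factor, 4.03-fold lower and vet-6 1.29-fold lower, the last turning to a ratio of 1.01 under that scaling.

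Late embryo tissue markers were at least 2-fold lower in 7 of 10 under both scalings, and their summed level was 1760 reads per 1000000 at 25 °C and 2126 at 16 °C. Of these 7, the muscle genes tnt-4 and myo-2 were 31.1-fold (23.4 to 42.1) and 27-fold (22.5 to 32.6) lower. In the gut, ges-1, an esterase, was 20.6-fold lower (12.9 to 35.1), elt-2, a GATA factor, 8.64-fold (6.90 to 10.9) and vha-6, a proton pump subunit, 8.30-fold (7.14 to 9.70). The neuronal genes unc-17 and unc-25 were 5.92-fold (4.44 to 8.02) and 3.05-fold (2.51 to 3.74) lower. The other 3 were not, and most of the sum is body muscle, where myo-3 had a ratio of 1.24 (1.22 to 1.27) and unc-54 one of 0.924 (0.904 to 0.945; 1.21 when scaled by the median exon ratio), and dpy-7, a cuticle collagen, was 1.42-fold lower. The libraries thus held different amounts of stage-specific RNA, and the part of this in the exon values of the 9 genes was not tested. Of 11 sperm markers, fer-14, msp-10, msp-142, msp-31, msp-38 and msp-56 were not found by symbol, so their RNA is not in the sum. The 5 that were found summed to 6.55 reads per 1000000 at 25 °C and 3.72 at 16 °C. Of these, spe-41 had 90 exon reads at 25 °C and 57 at 16 °C, and spe-9 had 29 and 20 in the same order. No exon read was found for spe-11, spe-38 and spe-42 at 25 °C or for spe-38 at 16 °C. The 6 yolk protein genes, which mark the adult intestine and hold near copies that may share reads, summed to 4.90 reads per 1000000 at 25 °C and 4.95 at 16 °C. For vit-1 that was 4 reads at 25 °C and 73 at 16 °C, for vit-3 it was 56 and 13 in the same order, and for vit-5 it was 9 and 8, while vit-4 had none at 16 °C.

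Other genes were ranked by distance to the members' medians of 3 values from the 2 libraries, the log2 RPKM at 16 °C, the log2 exon difference and the log2 intron-to-exon difference, among 6983 other genes that reached 20 combined intron reads. The nearest were clec-264, coq-6, eri-6, Y73B3A.18 and DH11.5, at distances of 0.11, 0.14, 0.20, 0.24 and 0.27 on the log2 scale. As an example, clec-264, a C-type lectin-domain gene, had 218 exon reads at 25 °C and 221 at 16 °C, with 36 and 17 intron reads in the same order. Its introns held 14.2% of its reads at 25 °C, against 0.856% for the 9 genes summed. Of the 9 genes, 8 lack the 20 intron reads asked of the others, and the median intron-to-exon difference is the value of mbk-2, so these genes are near on the 3 medians and are not shown to be like the members.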

How the data were processed

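Per the labels' protocols, stranded mRNA libraries were sequenced as read pairs, 1 per temperature. Trimmomatic, TopHat2 and HTSeq were used, per the submitters' processing notes. The sources used here give no versions, genome build, annotation or strand setting. The deposited table holds raw counts of exon and intron reads per gene, and columns marked Con and Exp were assigned to temperatures through those marks in the sample labels. The authors' deposited fold is the ratio of intron-to-exon ratios, recomputed to within 0.01% in 10860 of 10860 genes. Their deposited p-value equals a two-sided Fisher exact p within 2% in 19487 genes, and its adjusted p is that value times the number of genes.

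From the counts, Fisher tests were rerun on 14972 genes with at least 10 combined reads (Python 3.11.15, SciPy 1.17.1), adjusted by Benjamini-Hochberg at 0.05. Exon reads were scaled by total gene reads and called by size, at 2-fold. Log2 values had 0.5 reads added. Folds of single genes did not. On simulated counts over 14972 genes at these depths, 37 of 100 genes with a 2-fold change were called, as were 93 of 100 with a 4-fold change and 0 of 14772 others. The changed genes were drawn from those reaching 20 combined intron reads, which mbk-2 alone of the members reached. Far fewer genes were changed there than the 28.1% that rose in the data, so the adjustment was stricter. The draws held counting error alone, so these counts do not give the rates of missed or false calls in these libraries. Ensembl release 115 (WBcel235) supplied positions through gene identifiers, of which 19298 matched. The build behind the counts may differ. The members, the gene lists and the tests were chosen with earlier results of these data known. Named genes were all members, gad-1, the paralogs, up to 3 genes per list by ratio (at least 20 intron reads) and by exon difference (at least 100 exon reads), the 3 most read markers per list and the 5 nearest genes. Alternatives were another adjustment, minimum, pseudocount, scaling and fold. One marker gene of the lists is not reported here.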

Additional observations from a re-analysis of the deposited data

How the results depend on the processing

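The rise of mbk-2 kept its call with no minimum of combined reads and with at least 20 combined intron reads. A Bonferroni adjustment at 0.01 left 0 of the 9 genes called (adjusted p = 0.0285 for mbk-2, Fisher exact test), and 1108 rises and 3 falls over all genes. These falls in number follow from the stricter adjustment itself. The members' median log2 intron-to-exon difference of 1.04 was 0.42 with counts under 3 set at 3, 1.21 without mbk-2 and 1.56 in the 7 members with an intron read, 3 settings chosen after seeing the data. Scaling by the median exon ratio left 0 members at least 2-fold lower and 1 at least 2-fold higher, and gave 1507 genes at least 2-fold higher and 3871 lower over all genes, because every log2 difference moved up by 0.39. At 1.5-fold, 2 members were lower and 2 higher, with 1605 genes higher and 6310 lower over all genes. Of 45 recomputed values of single members, 35 stayed inside their counting intervals, 4 of egg-2 and egg-3 have no interval because these genes have no intron read, 6 moved outside them, all exon differences under the median exon ratio, and 0 values past the threshold reversed. Depth limits the intron values of the 8 members with 6 or fewer combined intron reads. Leaving out a library was not possible with 1 per temperature. No paired analysis was possible because each temperature has a single library, without replicates to pair.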

Other observations

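The following genes of the shell list and of egg activation were chosen after their values were seen. The enzyme gene gfat-1, at the head of the hexosamine route that gna-2 continues, had 1569 exon reads at 25 °C and 3436 at 16 °C, and was 1.81-fold lower at 25 °C (1.70 to 1.92), or 1.38-fold lower when scaled by the median exon ratio. Its paralog gfat-2 went the other way, on 83 and 46 reads in the same order. The proteoglycan genes cpg-1 and cpg-2, whose products fill the layer inside the chitin, were 1.45-fold lower (1.22 to 1.72) and 1.67-fold lower (1.40 to 1.99), with 218 and 191 exon reads at 25 °C against 383 and 386 at 16 °C. Scaled by the median exon ratio they were 1.11-fold and 1.28-fold lower. Of the lipid barrier genes, the fatty acid synthase gene fasn-1 had a ratio of 1.66 (1.63 to 1.68). The acetyl-CoA carboxylase gene pod-2 had one of 1.51 (1.48 to 1.55). Scaled by the median exon ratio these were 2.17 and 1.97 in the same order. In the same list perm-5 had a ratio of 1.05 (0.983 to 1.13) and emb-8 one of 0.829 (0.772 to 0.890). Under that scaling they stood at 1.38 and 1.08 in the same order. The values of fasn-1 and pod-2 thus do not stand for the barrier as a whole.

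The intron-to-exon ratio rose in 15 of the 24 listed regulators of the transition, beside 28.1% over all genes tested. It rose in mei-2, on 9 intron reads at 25 °C and 2 at 16 °C (adjusted p = 0.0191, Fisher exact test). The following genes of egg activation were picked from the 9 that were not called. For oma-1, a maternal factor that MBK-2 marks for removal, there were 4 intron reads at 25 °C and 1 at 16 °C beside 2272 and 3203 exon reads (adjusted p = 0.363, Fisher exact test). For its partner oma-2 there were none in either library beside 816 and 982 exon reads, in the same order. For mei-1, the katanin of the meiotic spindle, there were 23 at 25 °C and 25 at 16 °C, a ratio of 1.14 (0.617 to 2.10; adjusted p = 0.979, Fisher exact test).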
